A study of Mus musculus with 8 samples.

Results

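The receptors described here are 9 genes through which oligodendrocytes, the myelin-forming cells of the central nervous system, can read growth factors and bioactive lipids. They were listed by name: the receptor tyrosine kinases Erbb3, Erbb4, Fgfr2, Igf1r and Insr, the lipid receptors Lpar1 and S1pr5, the orphan receptor Gpr37 and the adhesion receptor Adgrb3. All 9 were present among the 18833 genes measured. The cells came from the brains of Fire+/+ (WT) mice and of FireΔ/Δ (KO) mice, in which the Fire super-enhancer in an intron of Csf1r is deleted in the germline, so that microglia are missing from development on while other brain macrophages remain. The WT mice were numbers 1 and 4 and the KO mice numbers 3 and 6, all female, and each gave a hippocampus library and a cortex library, 8 libraries in all. Per the study's methods, the hippocampus of both hemispheres was taken, and the libraries labelled cortex held the rest of the left hemisphere without the olfactory bulb and cerebellum. The labels give an age of 1 month 18 days for mice 1 and 3 and of 1 month 16 days for mice 4 and 6. Each of 4 batches held 1 tissue of 1 age in both genotypes, so that batch cannot be told apart from age or from tissue.

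Oligodendrocytes at this age have largely left the progenitor stage and wrap axons with myelin. Neuregulins act through ErbB3 and ErbB4, fibroblast growth factors through FGFR2, and insulin-like growth factor 1 and insulin through IGF1R and the insulin receptor. These kinases feed the RAS and ERK pathway and the PI3K, AKT and mTOR pathway, both of which set how much myelin a cell makes. Lysophosphatidic acid and sphingosine 1-phosphate bind LPA1 and S1P5, G protein-coupled receptors that act on the cytoskeleton. GPR37 is known as a brake on oligodendrocyte differentiation and myelination, and ADGRB3 binds C1q-like proteins.

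The deposited table held 12581 mature oligodendrocytes, 904 to 2784 per library, with median counts of 9377 to 13725.5 unique molecular identifiers (UMIs, each standing for 1 captured transcript) per cell. Each of 6 oligodendrocyte markers had a UMI in 100% of cells, whichever library was looked at. The enhancer was checked through Csf1r, the gene it drives in microglia: the WT libraries held 72 to 162 Csf1r UMIs and the KO libraries 0 to 3, as the labels say. The summed level of 8 microglia markers was 0.441 to 1.04 normalized UMIs per cell in WT and 0.120 to 0.175 in KO libraries, with none of the 8 at 0 over all KO libraries, and the part of this difference in the results on genotype was not tested. Summed levels in the 8 libraries ran from 2.92 to 3.71 for 5 detected of 6 markers of newly formed oligodendrocytes, from 0.115 to 0.352 for 5 progenitor markers, from 1.54 to 2.18 for 6 astrocyte markers, from 0.0656 to 0.132 for 6 neuronal markers, from 0.0315 to 0.149 for 4 endothelial markers and from 0.219 to 9.36 for 4 erythrocyte markers. Among the cells, 42 shared a barcode with a cell of another library. Levels below are means over cells of log2(normalized UMI count + 1), called log2 levels. Shares of cells with a UMI could not be set against another cell type, since all deposited cells are oligodendrocytes.

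In GRCm38, with gene ends from GENCODE vM21, Erbb3 (ENSMUSG00000018166) lies on chromosome 10 from 128567523 to 128589652, Erbb4 (ENSMUSG00000062209) on chromosome 1 from 68032186 to 69108059 and Adgrb3 (ENSMUSG00000033569) on chromosome 1 from 25067476 to 25829707. Fgfr2 (ENSMUSG00000030849) lies on chromosome 7 from 130162451 to 133123350, Igf1r (ENSMUSG00000005533) on chromosome 7 from 67952827 to 68233668 and Insr (ENSMUSG00000005534) on chromosome 8 from 3122061 to 3279617. Lpar1 (ENSMUSG00000038668) lies on chromosome 4 from 58435255 to 58553898, S1pr5 (ENSMUSG00000045087) on chromosome 9 from 21242912 to 21248443 and Gpr37 (ENSMUSG00000039904) on chromosome 6 from 25665878 to 25690729. Igf1r is on the plus strand and the other 8 genes are on the minus strand. The Fgfr2 model reaches far upstream over other genes of its strand, among them Ate1 and Nsmce4a, so its values carry an uncertainty about shared exons. How such reads were assigned is not given in the sources used here.

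Across libraries, a UMI of Gpr37 was found in 99.6% to 100% of cells, of Lpar1 in 98.3% to 99.9%, of Fgfr2 in 88.0% to 96.7%, of S1pr5 in 73.7% to 85.7%, of Erbb3 in 55.2% to 75.6%, of Igf1r in 36.6% to 52.2%, of Erbb4 in 31.5% to 50.05%, of Insr in 23.5% to 40.1% and of Adgrb3 in 3.57% to 8.12%. These shares count captured 3′ ends and depend on depth as well as on expression, so the genes are not ranked by them.

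Promoter windows, from 250 bases before a RefSeq start site to 50 after it, were available for 7 of the 9 genes and not for Erbb3 and Insr. Those of the 3 receptors whose levels differed most between the oligodendrocyte clusters are printed 5′ to 3′ on the minus strand, from RefSeq's GRCm38.p6: Fgfr2 at chr7:130266759-130267058, Erbb4 at chr1:69108010-69108309 and, of 3 windows, the Lpar1 window nearest the gene's end at chr4:58553442-58553741. Capitals mark matches to 3 short motifs searched on both strands.
Fgfr2: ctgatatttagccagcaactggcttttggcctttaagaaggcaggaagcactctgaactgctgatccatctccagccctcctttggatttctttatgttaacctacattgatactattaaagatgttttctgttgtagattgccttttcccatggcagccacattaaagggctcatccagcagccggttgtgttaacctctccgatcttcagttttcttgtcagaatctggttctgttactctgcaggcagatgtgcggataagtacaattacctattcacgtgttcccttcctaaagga
Erbb4: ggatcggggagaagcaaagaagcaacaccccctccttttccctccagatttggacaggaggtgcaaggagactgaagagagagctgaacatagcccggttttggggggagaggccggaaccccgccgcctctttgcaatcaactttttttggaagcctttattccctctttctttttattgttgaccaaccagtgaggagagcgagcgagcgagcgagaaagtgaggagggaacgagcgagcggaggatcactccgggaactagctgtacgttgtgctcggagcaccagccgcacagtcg
Lpar1: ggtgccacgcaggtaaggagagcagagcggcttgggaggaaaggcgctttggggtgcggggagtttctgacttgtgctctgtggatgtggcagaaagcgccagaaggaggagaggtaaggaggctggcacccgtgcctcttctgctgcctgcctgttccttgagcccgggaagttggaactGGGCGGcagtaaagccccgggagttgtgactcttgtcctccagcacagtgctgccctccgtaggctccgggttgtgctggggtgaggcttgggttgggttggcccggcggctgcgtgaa
The motifs were ACAAAG, a core bound by SOX factors, GGGCGG, a GC box, and CAGCTG, an E-box. They occur in 18.7%, 35.7% and 16.3% of 32851 such windows of all genes. The Fgfr2 and Erbb4 windows held none of them and this Lpar1 window held 1 GC box. Of the Lpar1 windows not printed, chr4:58553244-58553543 held a SOX core and a GC box, and chr4:58499354-58499653 a SOX core. A match is a description of the letters, not of binding.

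The first comparison asked whether the receptors differed between KO and WT oligodendrocytes. No receptor passed the test between 2 KO and 2 WT mice (limma on mouse means of both tissues, Benjamini-Hochberg adjusted p of 0.05 over 9257 genes). Of the 9 receptors, 0 were called, against 0% of all genes tested (percent called over the whole table). Limma gave 209 genes an unadjusted p under 0.05, Fgfr2 among them, and edgeR on UMI sums called 8 genes, none of them a receptor. The median difference of the 9 receptors was -0.020, beside 0.0013 over all genes tested. Relative to WT, the estimates were lower for 7 receptors and higher for Lpar1 and S1pr5.

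Among the neuregulin receptors, ErbB3 binds ligand but has little kinase activity of its own, and ErbB4 is a full kinase. Erbb3 log2 levels were 0.64 and 0.86 in WT hippocampus (mice 1 and 4), 0.67 and 0.88 in WT cortex, 0.64 and 0.82 in KO hippocampus (mice 3 and 6) and 0.72 and 0.86 in KO cortex. The genotypes overlapped throughout, and the mean difference was -0.0030 (SE 0.11, limma adjusted p = 1.0). Erbb4 log2 levels were 0.40 and 0.47 in WT hippocampus, 0.40 and 0.44 in WT cortex, 0.31 and 0.41 in KO hippocampus and 0.33 and 0.42 in KO cortex. The KO library of each batch was below its WT library, by 0.026 to 0.089, although the genotypes overlapped across batches. The mean difference was -0.063 (SE 0.043, limma adjusted p = 1.0), and -0.044 (SE 0.043) in Oligo2 to Oligo4 alone. It was -0.017 without mouse 3, -0.037 without mouse 4 and -0.11 without mouse 6.

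Fgfr2 encodes the FGF receptor tied to myelin thickness. Its log2 levels were 1.61 and 1.67 in WT hippocampus and 1.66 and 1.60 in WT cortex, against 1.46 and 1.5 in KO hippocampus and 1.65 and 1.51 in KO cortex. Both KO hippocampus libraries and KO cortex of mouse 6 lay below all 4 WT libraries, whereas KO cortex of mouse 3 lay among them. The mean difference of -0.10 (SE 0.024) was the lowest of the 9, with an unadjusted p of 0.019 and a limma adjusted p of 1.0. It was -0.16 (unadjusted p = 0.010, limma adjusted p = 1.0) in hippocampus alone and -0.049 in cortex alone. In Oligo2 to Oligo4 it was -0.042 (SE 0.042). Igf1r and Insr, the receptors for insulin-like growth factor 1 and insulin, had log2 levels of 0.38 to 0.50 and 0.21 to 0.33. Igf1r differed by -0.020 (SE 0.013) and Insr by -0.037 (SE 0.040), both with a limma adjusted p of 1.0. Insr was lower in the KO library of every batch, by 0.019 to 0.045.

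Over all oligodendrocytes pooled, the lipid receptors differed little between genotypes. Lpar1 log2 levels ran from 2.29 to 2.39 in WT and from 2.32 to 2.36 in KO libraries, a mean difference of 0.0021 (SE 0.017). The clusters differed in sign for Lpar1, at 0.037 in Oligo2, 0.021 in Oligo3 and -0.12 in Oligo4, and 0.040 (SE 0.020) over Oligo2 to Oligo4. The part of the clusters' shares of cells in the pooled values was not tested. S1pr5 log2 levels ran from 1.00 to 1.09 in WT and from 0.99 to 1.08 in KO libraries, a difference of 0.015 (SE 0.020). For S1pr5 the KO minus WT estimate was 0.053 in cortex alone (unadjusted p = 0.031, limma adjusted p = 1.0) and -0.022 in hippocampus alone.

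Gpr37 log2 levels were 2.77 and 2.70 in WT hippocampus, 2.81 and 2.66 in WT cortex, 2.58 and 2.56 in KO hippocampus and 2.88 and 2.68 in KO cortex. Both KO hippocampus libraries were the lowest of the 8. The mean difference was -0.058 (SE 0.062, limma adjusted p = 1.0). It was -0.16 in hippocampus alone and 0.047 in cortex alone. Leaving out a mouse gave -0.0015 without mouse 1, -0.0044 without mouse 6, -0.11 without mouse 3 and -0.12 without mouse 4. Adgrb3, the adhesion receptor, was near the detection limit, and its log2 levels were 0.034 to 0.066 in WT and 0.026 to 0.046 in KO libraries. The KO library was lower in every batch, by 0.0078 to 0.021, and the mean difference was -0.013 (SE 0.016).

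**Figure D1:**
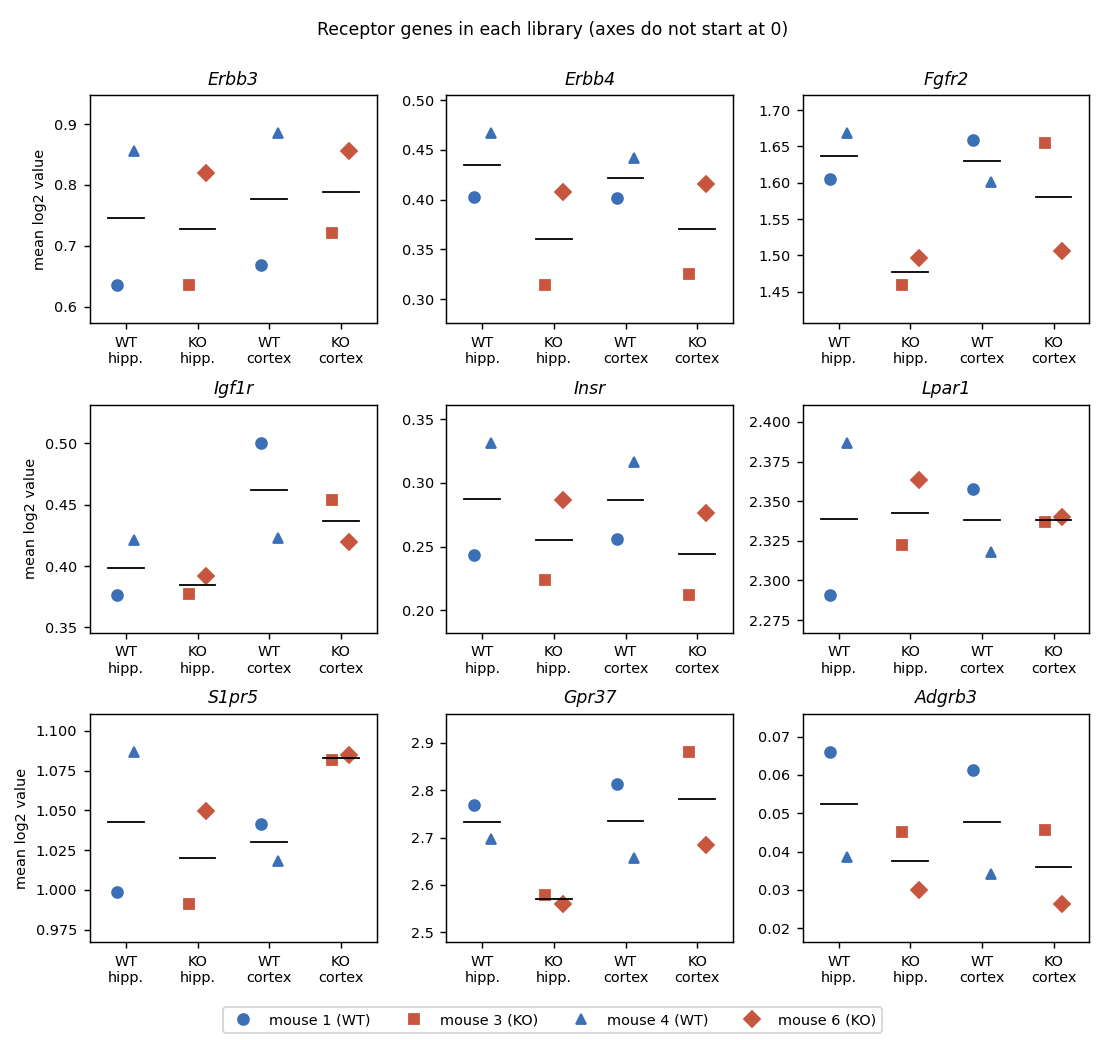
Mean log2 level of each receptor (vertical axes, log2 of normalized UMI count + 1, not starting at 0) in the 8 libraries, grouped by genotype and tissue. Points are libraries with 1 shape per mouse and bars are means of 2 libraries. Gpr37 sits lowest in KO hippocampus, Fgfr2 sits at 1.46 to 1.51 in KO hippocampus and in KO cortex of mouse 6, and Erbb3, Erbb4 and Insr sit higher in mice 4 and 6 than in mice 1 and 3.

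Within batches, Erbb4, Fgfr2, Insr and Adgrb3 were lower in KO than in WT in all 4 batches, 4 of 9 receptors, while 9.9% of the genes tested were. Over Oligo2 to Oligo4 the same held for Erbb4, Insr and Adgrb3, 3 of 9 receptors, against 8.34% of genes tested. Fgfr2 differed there by -0.0086 and 0.032 in the hippocampus and cortex of mice 1 and 3, and by -0.11 and -0.077 in those of mice 4 and 6. In a fit with mice of the same age as a block, the unadjusted p-values were 0.0078 for Gpr37, 0.017 for Fgfr2, 0.028 for Insr and 0.030 for Erbb4, and the lowest limma adjusted p of a receptor was 0.37.

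**Figure D2:**
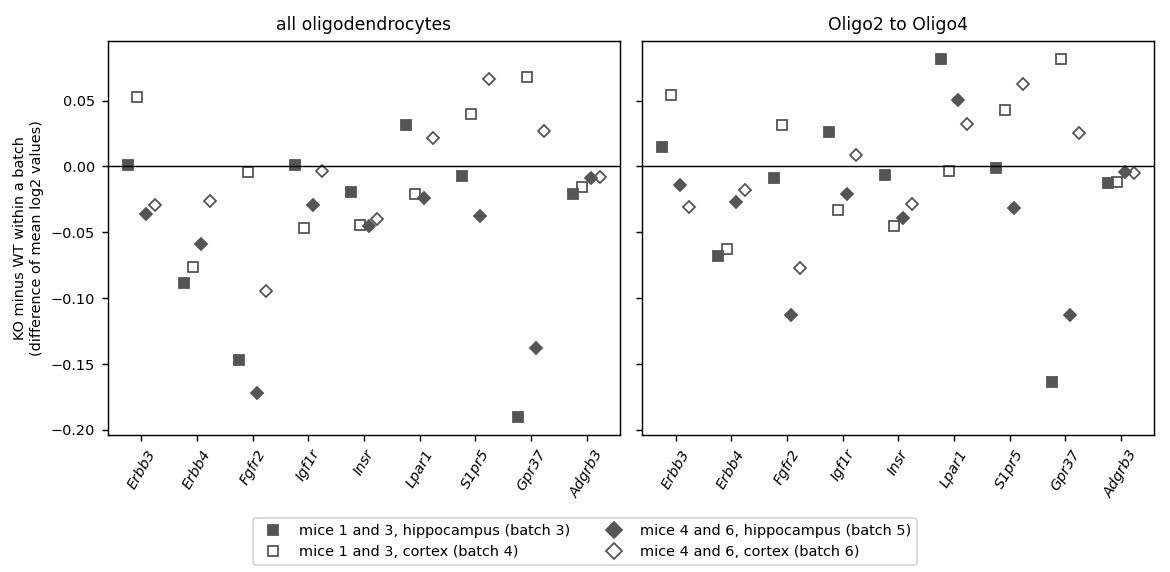
KO minus WT difference of mean log2 levels within each batch (vertical axis, log2 units) for each receptor, over all oligodendrocytes (left) and over Oligo2 to Oligo4 (right). Each point is 1 batch. All 4 points of Erbb4, Insr and Adgrb3 lie below 0 in both panels, and Gpr37 lies below 0 in hippocampus and above 0 in cortex.

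The same comparison was made within each cluster that both genotypes held. No receptor passed in Oligo2 (0 of 9, against 0% of 9292 genes), in Oligo3 (0 of 8 tested, against 0% of 9135 genes) or in Oligo4 (0 of 8 tested, against 0% of 9381 genes). Limma gave 139, 103 and 282 genes an unadjusted p under 0.05, and edgeR called 4, 3 and 25 genes, with no receptor among them. Over Oligo2 to Oligo4 together the count was likewise 0 of 9, against 0% of 9232 genes, with 133 genes at an unadjusted p under 0.05 and 3 genes called by edgeR.

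In Oligo2, Fgfr2 log2 levels were 1.5 and 1.54 in WT hippocampus, 1.59 and 1.49 in WT cortex, 1.41 and 1.47 in KO hippocampus and 1.46 and 1.41 in KO cortex. All 4 KO libraries lay below all 4 WT libraries, as they did for 1.13% of genes tested in Oligo2. The difference was -0.095 (SE 0.018), with an unadjusted p of 0.0094 and a limma adjusted p of 1.0, while edgeR on UMI sums gave an unadjusted p of 0.37. With each cell thinned to 5000 UMIs the genotypes overlapped, at 1.27 to 1.47 in WT and 1.22 to 1.38 in KO libraries. In Oligo3 it was 0.013 (SE 0.059) and in Oligo4 -0.022 (SE 0.027). In Oligo4, Lpar1 log2 levels were 3.13 and 3.10 in WT hippocampus, 3.24 and 3.14 in WT cortex, 3.01 and 3.09 in KO hippocampus and 3.0 and 3.05 in KO cortex. Here too the KO libraries lay below the WT libraries, as for 1.8% of genes tested in Oligo4. The difference of -0.12 (SE 0.040) had an unadjusted p of 0.047 and a limma adjusted p of 1.0, and edgeR gave -0.071 with an unadjusted p of 0.63. In thinned cells the genotypes overlapped here as well, at 2.95 to 3.14 in WT and 2.79 to 3.02 in KO libraries. Erbb4 in Oligo4 differed by -0.082 (SE 0.043).

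The study's clusters were set from these cells' own expression, so differences between clusters are given as a description. The log2 level of Lpar1 was 3.0 to 3.24 in Oligo4, 2.25 to 2.35 in Oligo3, 2.14 to 2.27 in Oligo2 and 2.11 to 2.26 in Oligo1 across libraries. The Oligo4 range stood apart from all others, whereas Oligo3 and Oligo2 overlapped over libraries, and Oligo2 and Oligo1 between the KO mice. Erbb4 had the same order at the top, with 0.45 to 0.66 in Oligo4, 0.35 to 0.48 in Oligo3, 0.23 to 0.35 in Oligo2 and 0.24 to 0.35 in Oligo1. Both were highest in Oligo4 among Oligo2 to Oligo4 in every one of the 8 libraries, 2 of 9 receptors against 6.12% of genes tested. Erbb4, Lpar1 and Gpr37 were lowest of these 3 clusters in Oligo2 in all 8 libraries, against 6.06% of genes tested.

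Fgfr2 had its own order. Its log2 level was 1.60 to 1.82 in Oligo3, 1.41 to 1.59 in Oligo2, 1.33 to 1.5 in Oligo4 and 1.15 to 1.43 in Oligo1. In the values as deposited, no neighbours in this order overlapped between the KO mice. Fgfr2 was highest in Oligo3 in all 8 libraries, 1 of 9 receptors against 1.46% of genes tested, each among Oligo2 to Oligo4. Of these 3 clusters, Fgfr2 and Igf1r were lowest in Oligo4, against 6.16% of genes tested. In both KO hippocampus libraries Fgfr2 was lower still in Oligo1. It was near level in KO cortex, at 1.428 in Oligo1 and 1.430 in Oligo4 of mouse 3 and 1.362 and 1.354 in mouse 6. Igf1r was 0.38 to 0.51 in Oligo3 and 0.36 to 0.50 in Oligo2, levels whose mice overlapped, then 0.32 to 0.37 in Oligo1 and 0.25 to 0.36 in Oligo4.

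Among the same 3 clusters, S1pr5 and Adgrb3 were highest in Oligo2 in all 8 libraries, against 8.64% of genes tested. S1pr5 spanned 1.05 to 1.14 in Oligo2 and 0.90 to 1.10 in Oligo4. Adgrb3 spanned 0.046 to 0.13 in Oligo2, 0.023 to 0.054 in Oligo3 and 0 to 0.038 in Oligo4. It had a UMI in 0 of 97 Oligo4 cells of WT cortex of mouse 4, so that the share of cells with a UMI could be up to 3.09% by counting error alone, which sets no limit on cells that express the gene. For Erbb3 and Insr, mice overlapped between every pair of neighbours in the order. Within libraries, though, Erbb3 was highest of Oligo2 to Oligo4 in Oligo4 in 7 of 8 and lowest in Oligo2 in 7 of 8, at 0.71 to 1.15 in Oligo4 and 0.57 to 0.80 in Oligo2. The exception at the top was KO cortex of mouse 3, with 0.735 in Oligo4 and 0.737 in Oligo2. Insr was highest in Oligo2 in 4 libraries, in Oligo3 in 2 and in Oligo4 in 2. The summed level of the newly formed oligodendrocyte markers was 4.97 to 5.60 in Oligo2 and 2.04 to 3.51 in the other clusters, and its part in these orders was not tested.

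Cluster depth also differed, with library medians of 8883 to 13178.5 UMIs per cell in Oligo3 and 10956.5 to 16160 in Oligo4. After each cell was thinned to 5000 UMIs, Erbb4 and Lpar1 were still highest in Oligo4 in all 8 libraries, joined by Erbb3, against 3.15% of genes tested. Fgfr2 was still highest in Oligo3, against 0.834% of genes tested, and Adgrb3 in Oligo2, against 6.22%. S1pr5 was then highest in Oligo2 in 7 of 8 libraries, and Fgfr2 and Igf1r were each lowest in Oligo4 in 7 of 8, among Oligo2 to Oligo4. The lower part of the Fgfr2 order did not hold in every KO library. In thinned cells of KO cortex of mouse 6, Fgfr2 was 1.28 in Oligo1, 1.22 in Oligo2 and 1.10 in Oligo4. In the other KO libraries it was lowest in Oligo1. In thinned cells, Fgfr2 had a UMI in 72.2% to 81.9% of Oligo3 cells and 60.5% to 70.4% of Oligo1 cells across libraries. Lpar1 had one in 95.7% to 100% of Oligo4 cells and 88.4% to 91.3% of Oligo1 cells.

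**Figure D3:**
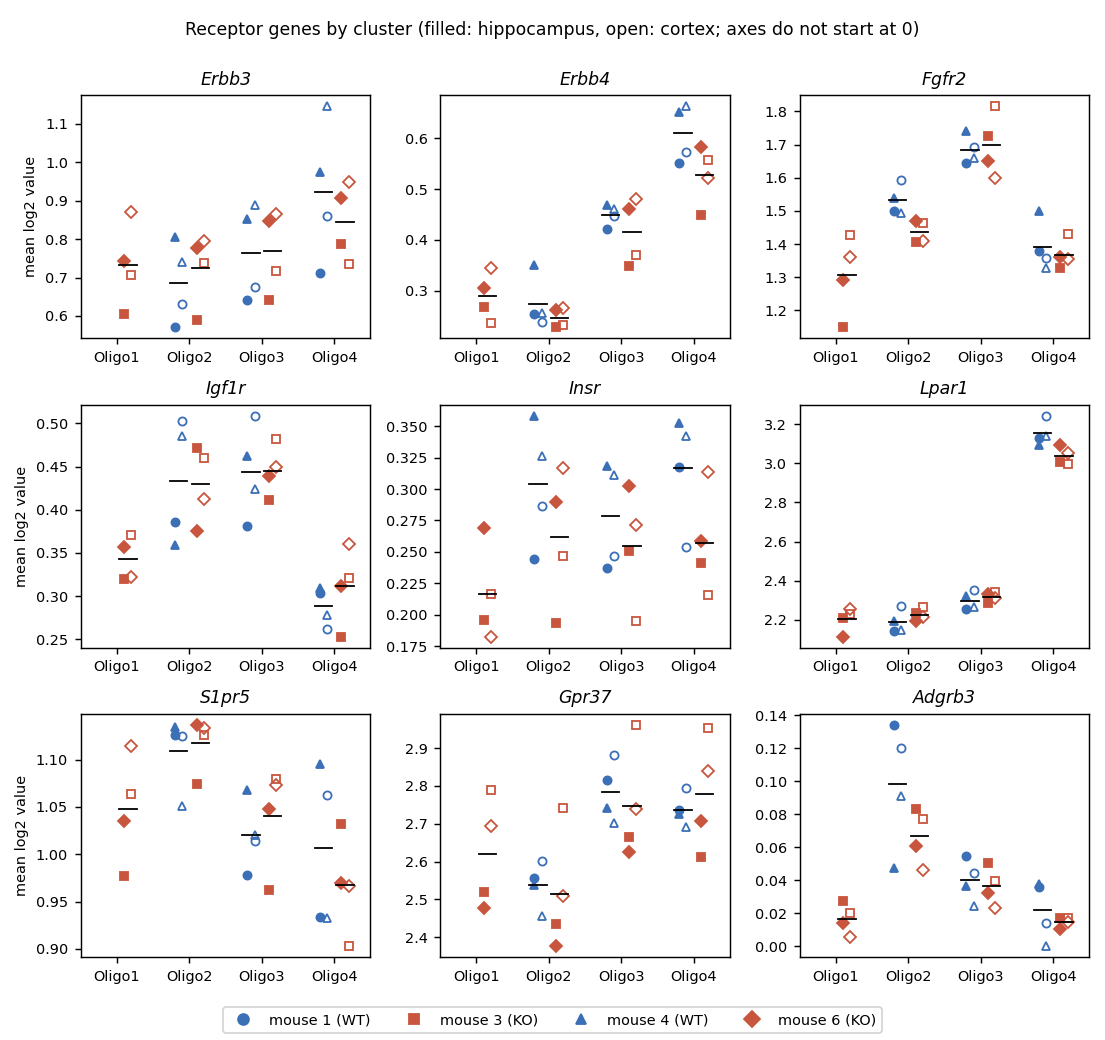
Mean log2 level of each receptor (vertical axes, log2 units, not starting at 0) in the clusters Oligo1 to Oligo4. Each point is 1 library, with 1 shape per mouse, and bars are means over the libraries of 1 genotype; Oligo1 is shown for KO mice only. Lpar1 lies at 3.0 to 3.24 in Oligo4 and at most at 2.35 in the other clusters, and Fgfr2 peaks in Oligo3.

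Oligo1 was made up almost wholly of KO cells, 1552 in the 4 KO libraries and 6 in WT hippocampus of mouse 4. It was set against the other cells of the same KO library, for the 8 receptors that reached the limit set for testing, a UMI in 5% of cells. The difference is a description, since the cells were clustered on their expression. Fgfr2 was lower in Oligo1 by 0.45 in hippocampus and 0.26 in cortex of mouse 3, and by 0.27 in hippocampus and 0.16 in cortex of mouse 6, a mean of -0.28 ± 0.10 (SD, n = 2 mice). It was the 1 receptor that was lower by at least 0.1 in all 4 libraries, where 1.91% of the 9321 genes tested were. Counting Fgfr2 itself, 57 genes (0.612%) had a mean difference as low or lower. The summed level of the 6 astrocyte markers, none at 0, was 1.08 to 1.58 in Oligo1 and 1.74 to 2.26 in the other KO cells, and its part in this difference was not tested. After thinning, Fgfr2 differed by -0.41, -0.30, -0.24 and -0.035 in the same order, so that the last library no longer passed 0.1 and the count was 0 receptors.

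Lpar1 was lower in Oligo1 by 0.16, 0.13, 0.33 and 0.095 in the same library order, a mean of -0.18 ± 0.046. The difference from Oligo3 cells alone was -0.12 ± 0.031. Without mouse 6, which leaves 2 libraries, Lpar1 joined Fgfr2 and the count was 2 receptors, with no share of all genes given beside it. Erbb4 differed by -0.067, -0.10, -0.13 and -0.078 and Igf1r by -0.083, -0.096, -0.045 and -0.11. These 4 receptors were lower in Oligo1 in all 4 libraries, 4 of 8 tested, where 15.8% of genes tested were. Not all of them were lowest in Oligo1 among single clusters. In the KO mice, mean Erbb4 was 0.29 in Oligo1 and 0.25 in Oligo2, and mean Igf1r was 0.34 in Oligo1 and 0.31 in Oligo4. The means of Fgfr2 and Lpar1 were lowest in Oligo1, with Lpar1 at 2.20 there and 2.23 in Oligo2. Erbb3, Insr, S1pr5 and Gpr37 were lower in 3 of 4 libraries each, with means of -0.036, -0.041, -0.0065 and -0.072. After thinning, Erbb3 and S1pr5 were lower in only 1 of 4 libraries each, with means of -0.0026 and 0.052. Insr and Gpr37 were then lower in all 4, with means of -0.022 and -0.040, and so were Lpar1, Erbb4 and Igf1r. Adgrb3, which was under that limit, differed by -0.030 to -0.021.

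**Figure D4:**
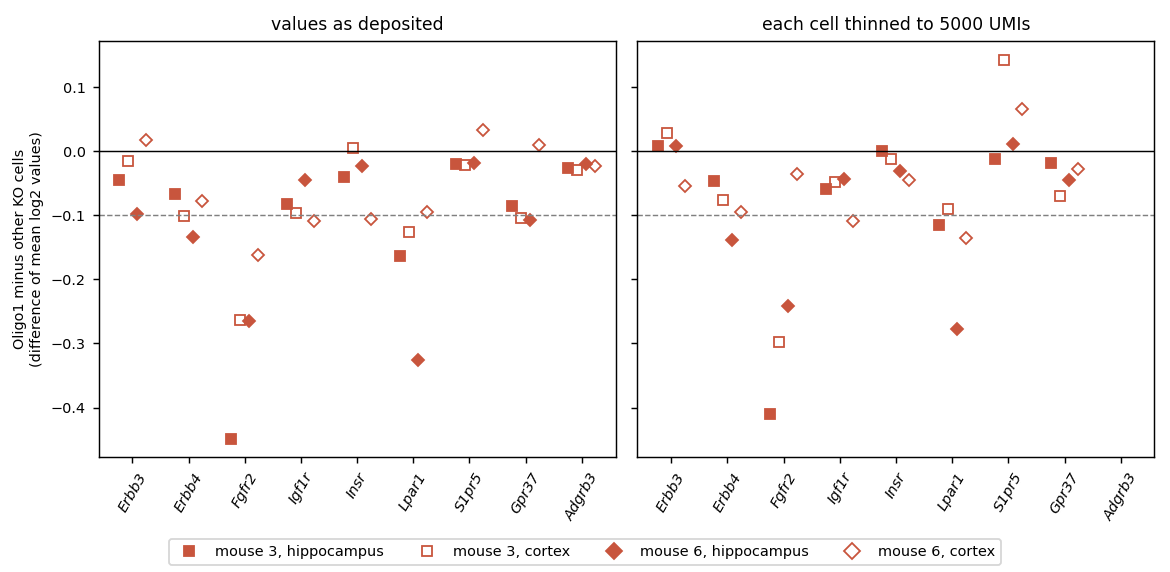
Oligo1 minus other KO cells, difference of mean log2 levels (vertical axis, log2 units) for each receptor, as deposited (left) and after thinning each cell to 5000 UMIs (right). Each point is 1 KO library and the dashed line marks -0.1. Fgfr2 has the lowest point, -0.45, and Adgrb3 is shown at left only.

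The hippocampus and cortex of each mouse were compared next, over the 8 libraries with genotype in the model. Hippocampus and cortex libraries were in separate batches, so a difference between tissues cannot be told apart from one between batches. No receptor passed, 0 of 9 against 0% of 9257 genes by limma, which gave 490 genes an unadjusted p under 0.05, while edgeR called 0 genes with 445 at that level. Igf1r was lower in the hippocampus of all 4 mice, by 0.0020 to 0.12, with a mean of -0.058 (SE 0.020, unadjusted p = 0.027, limma adjusted p = 0.86). Erbb3 was also lower in the hippocampus of all 4 mice, by 0.029 to 0.085, with a mean of -0.046 (SE 0.076). With the mouse as a block the SE was 0.012 (unadjusted p = 0.012, limma adjusted p = 0.22). Gpr37 differed by -0.11 (SE 0.067), or by -0.043 without mouse 3. With the mouse as a block in edgeR, 71 genes were called, none of them a receptor, and the lowest adjusted p of a receptor was 0.12, for Igf1r. For the other 6 receptors the estimates lay between -0.048 and 0.0059.

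Whether the genotype difference depended on tissue was tested with 1 value per mouse, its hippocampus level less its cortex level. No receptor passed, 0 of 9 against 0% of 9257 genes by limma, with 574 genes at an unadjusted p under 0.05. Gpr37 was the receptor with the lowest estimate: its hippocampus minus cortex difference was -0.044 and 0.039 in the WT mice and -0.30 and -0.12 in the KO mice. The interaction was -0.21 (SE 0.071, unadjusted p = 0.042, limma adjusted p = 0.80). For Fgfr2 it was -0.11 (SE 0.080) and for S1pr5 -0.076 (SE 0.046). The other estimates lay between -0.029 and 0.011. Leaving out 1 mouse moved the Fgfr2 interaction between -0.20 (without mouse 6) and -0.017 (without mouse 3), that of S1pr5 between -0.13 (without mouse 1) and -0.020 (without mouse 4), and that of Gpr37 between -0.30 (without mouse 6) and -0.12 (without mouse 3).

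Across batches of both genotypes, 3 receptors separated mice 4 and 6 from mice 1 and 3. Erbb3 was 0.82 to 0.88 in the libraries of mice 4 and 6 and 0.64 to 0.72 in those of mice 1 and 3, Erbb4 was 0.41 to 0.47 and 0.31 to 0.40, and Insr was 0.28 to 0.33 and 0.21 to 0.26. Such a gap was seen for 3 of 9 receptors and for 19.4% of genes tested. Adgrb3 was lower, 0.026 to 0.039 against 0.045 to 0.066, as were 14.2% of genes tested. In thinned cells the gap held for Erbb3, detected in 44.5% of cells or more in mice 4 and 6 and in 37.8% or less in mice 1 and 3. For Erbb4 and Insr the thinned shares overlapped. The summed level of the 6 oligodendrocyte markers was 547 to 568 in mice 4 and 6 and 493 to 538 in mice 1 and 3. Its part in these gaps was not tested.

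The ligands, adaptors and downstream genes were followed in 8 lists of 155 genes, of which 100 were tested. Between genotypes, 0 were called higher and 0 lower in any list, by limma or by edgeR. List medians ran from -0.0062 for the RAS and ERK adaptors to 0.0053 for the G proteins and their effectors, beside 0.0013 over all genes. The largest estimates were values only. Among ErbB partners, Bace1, the protease that cleaves neuregulin, differed by -0.059 and the ErbB2-binding scaffold Erbin by 0.044. In the FGF list, the RAS inhibitor Spred1 differed by -0.13 and Fgfrl1, an FGF receptor without a kinase domain, by 0.058. In the insulin list, the receptor inhibitor Grb14 differed by 0.050 and the receptor substrate Irs2 by 0.035. Of the PI3K genes, Gsk3b differed by -0.076 and Rictor, a subunit of mTOR complex 2, by -0.044. Mapk3, which encodes ERK1, differed by 0.10 and the adaptor Grb2 by -0.074. The lipid phosphate phosphatases Plpp2 and Plpp3 differed by 0.064 and 0.054. Rhob differed by 0.15 (SE 0.031, unadjusted p = 0.015, limma adjusted p = 1.0) and Gnas by -0.13. The orphan receptor Gpr62 differed by -0.075 and Elmo1, which binds the adhesion receptors' cytoplasmic tails, by 0.062.

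In the test of genotype by tissue, too, 0 of these 100 genes were called. Between tissues, 0 of them were called in either direction by limma or edgeR, and 66 were lower and 34 higher in the hippocampus, with a median over all genes of -0.0051. List medians ran from -0.022 for the 11 lipid signalling genes to 0.0023 for the orphan and adhesion receptors. The named estimates, hippocampus minus cortex, were 0.18 for Erbin and -0.065 for Bace1, 0.038 for Fgfrl1 and -0.022 for Frs3, and 0.12 for Grb14 and -0.065 for Irs2. They were -0.059 for Gsk3b and -0.028 for Rps6kb1, -0.098 for Mapk3 and -0.079 for Map2k2, and -0.11 for Enpp2 and -0.039 for S1pr1. They were 0.15 for Gnai1 and -0.11 for Rhob, and 0.11 for Gpr62 and 0.051 for Dock1. Their lowest limma adjusted p was 0.74.

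In Oligo1 against the other KO cells, 7 of 102 list genes differed by at least 0.1 in the same direction in all 4 libraries. They were 4 higher and 3 lower, where 2.02% of all 9321 genes tested were higher and 1.91% lower by that rule. Arhgef12, a guanine nucleotide exchange factor, was higher by 0.30 to 0.43. Grb14, which dampens the insulin receptor, was higher by 0.18 to 0.52, Erbin by 0.20 to 0.38 and Fgfrl1 by 0.13 to 0.24. Enpp2, which encodes autotaxin, the enzyme that makes lysophosphatidic acid, differed by -0.25 to -0.17. Ptpn11, the phosphatase SHP2 that links receptor tyrosine kinases to RAS, differed by -0.26 to -0.14, and Pik3r1, the regulatory subunit of PI3K, by -0.25 to -0.11. List medians ran from -0.0058 for the FGF list to 0.026 for the G proteins and their effectors, beside 0.0025 over all genes.

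For each receptor, the genes with the most similar levels were sought over 28 groups of at least 20 cells, each a library and cluster. These groups share libraries, mice and depth, so the correlations are descriptions. Lpar1 was closest to Ctps (Pearson's r = 0.97), Tspan3 (0.96) and Igsf8 (0.96). Erbb4 was closest to Vangl1 (0.95), Daam1 (0.95) and Ttyh1 (0.95), and Erbb3 had Shroom2 (0.92) and Adcy5 (0.90) among its 3 closest genes. Fgfr2 was closest to Pantr1 (0.90), Prex1 (0.87) and Glrb (0.86), and Igf1r to Glul (0.86), Sppl2b (0.85) and Tmem144 (0.85). Insr was closest to Usp47 (0.86), Pik3c2a (0.83) and Clasp2 (0.81), and S1pr5 to Myo1d (0.81), Zfand6 (0.80) and Cdk18 (0.80). Gpr37 was closest to Mapre3 (0.84), Cdk5 (0.84) and Gm42372 (0.83), and Adgrb3 to Paqr6 (0.90), Lpcat2 (0.88) and Pmp22 (0.87). Among the receptors themselves, Erbb4 and Lpar1 were most alike (0.84) and Igf1r and Lpar1 least (-0.68).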

How the data were processed

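Single-cell RNA libraries were analysed from sorted brain cells of 2 WT and 2 KO mice, with hippocampus and cortex as separate samples. Group, mouse number and age came from the labels. Per the labels, the authors used Cell Ranger 5.0.0 and mm10, and per the study's methods they kept mature oligodendrocytes with at least 5000 UMIs, excluded doublets by scatter gates in the sort, and normalized with scran size factors. The tables used here hold fewer cells and genes than the study states. Doublets were not called again. The deposited values are log2(UMI count / size factor + 1) for 18833 genes and 12581 cells. A second deposited table gives each cell's UMI count, mitochondrial UMI count, size factor (a score relative to the average cell), batch and cluster. UMI counts were recovered from these, and all 42420937 values above 0 came out whole within 0.001. The cluster names, which the authors derived from batch-corrected expression, were used as deposited.

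The mean log2 levels of a mouse's libraries were averaged and fitted with limma 3.58.1 in R 4.3.3. Genes detected in 5% of cells or more as a mean over the groups were tested at a Benjamini-Hochberg adjusted p of 0.05 over all genes. The tissue test used libraries with genotype in the model. Oligo1 was described within KO libraries, with a move of 0.1 in all 4. Alternatives were edgeR 4.0.16 quasi-likelihood tests on UMI sums with TMM or DESeq2 1.42.0 size factors, pseudocounts of 1 and 0.1 on linear means, a 10% filter and none, a mean-variance trend, blocks by mouse or age, single tissues, leaving out each mouse, and thinning. In artificial data for the genotype comparison of all oligodendrocytes, 200 of 9257 genes were given log2 changes of 0.25, 0.5 or 1. Limma recovered 56.5%, 85% and 94.5% of them, with 8, 11 and 3 false calls. For edgeR the shares were 1.5%, 12% and 99.5%, with 1, 0 and 9 false calls. For limma the change was added to mouse mean levels with normally distributed noise, whatever the gene's level. For edgeR, counts were drawn with the fold change. These shares are therefore not a comparison of the 2 methods. The limma estimates of the receptors in that comparison ran from -0.10 to 0.015, nearer to 0 than any change given. The shares thus do not show how often a difference of that size would be found. Replicate numbers pair the samples because both libraries of a number come from 1 animal. Deviations of hippocampus and cortex from their group means correlated at 0.84 in WT and 0.85 in KO mice. With 2 mice per genotype these deviations mirror each other, and the mice differ in age too, so the correlation cannot show the pairing. The receptors and the gene lists were chosen with earlier results of these data known. Genes were named by rule: all 9 receptors, and from each list the called genes or, with fewer than 2, the 2 largest differences, in Oligo1 up to 3 genes that moved in all 4 libraries, and the 3 most similar genes per receptor, of which 1 is not reported here. Fgfr2 in Oligo2 and Lpar1 in Oligo4 were singled out after their values were seen. The p-values of the genotype and interaction tests measure the spread between 2 mice per genotype, which also differ in age and batch. Those of the tissue test measure the spread between libraries, with both libraries of a mouse counted separately. With the mouse as a block they measure the spread within mice.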

Additional observations from a re-analysis of the deposited data

Results flagged for a closer look

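Erbb4 had a hippocampus minus cortex difference above 0 in both WT mice, 0.0010 and 0.025, and below 0 in both KO mice, -0.011 and -0.0074, which brought it to attention as a tissue difference of opposite sign in the 2 genotypes. The interaction of -0.022 did not pass (limma adjusted p = 0.85).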

How the results depend on the processing

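With 2 mice per genotype, no receptor was called in any comparison under any of the alternatives, and the adjusted p of a receptor ranged from 0.12 to 1.0 over them. Fits without a mouse leave a genotype with 1 mouse, which is then assumed to vary like the other genotype. Adgrb3 fell under the 5% filter in Oligo3, Oligo4 and Oligo1 and was left out there in the main setting. With no filter, KO minus WT was -0.0036 in Oligo3 and -0.0072 in Oligo4, and neither was called. The replicate block by mouse left 0 receptors called between tissues, with 1450 genes at an unadjusted p under 0.05 instead of 490, and changed no other call. Over all genes, counts of calls moved from 0 to 8 in edgeR, 5 with a mean-variance trend, 2 with a pseudocount of 0.1 and 17 in edgeR with the age block for genotype in all oligodendrocytes; to 25, 9 and 14 in Oligo4 under the first 3; and to 71 for tissue in edgeR with the mouse block. The edgeR fits with a block and the tissue fit on Oligo2 to Oligo4 were chosen after seeing the data.

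In Oligo1, the number of receptors that moved was 3 with a pseudocount of 0.1 (Erbb4, Fgfr2, Igf1r), 0 after thinning, 2 in hippocampus only and 1 to 2 without a mouse, where the main count was 1. The share of 1.91% of all genes holds for the main setting, and shares for the other settings are not given here. A single tissue or the lack of a mouse leaves 2 libraries. These counts therefore cannot be read as results about the receptors. Of 501 recomputed receptor differences in the tested comparisons, 461 kept their direction and 40 changed sign; the cause was not tested. In all oligodendrocytes, KO minus WT became 0.0019 for Erbb3 with a pseudocount of 0.1, 0.012 for Erbb3 and 0.047 for Gpr37 in cortex only, and -0.022 for S1pr5 in hippocampus only. S1pr5 became -0.00074 and -0.0024 in edgeR with TMM and DESeq2 factors and -0.00071 with the age block. Without 1 mouse the ranges were -0.11 to 0.11 for Erbb3, -0.11 to -0.017 for Erbb4, -0.12 to -0.0015 for Gpr37, -0.028 to -0.011 for Igf1r, -0.074 to 9.1e-05 for Insr, -0.012 to 0.016 for Lpar1, -0.00075 to 0.032 for S1pr5 and -0.027 to 0.00042 for Adgrb3. In Oligo2 to Oligo4, Igf1r became 0.0028 and S1pr5 -0.016 in hippocampus only, and Gpr37 0.054 in cortex only. Without 1 mouse the ranges there were -0.10 to 0.12 for Erbb3, -0.091 to 0.0033 for Erbb4, -0.093 to 0.0099 for Fgfr2, -0.014 to 0.0044 for Igf1r, -0.067 to 0.0072 for Insr, -0.10 to 0.016 for Gpr37 and -0.022 to 0.0052 for Adgrb3. For Fgfr2 they were -0.060 to 0.086 in Oligo3 and -0.045 to 0.00072 in Oligo4, where Erbb4 ranged from -0.13 to -0.035. Hippocampus minus cortex became -0.015 for Erbb4 and -0.020 for Lpar1 in Oligo3 only, and 0.0066 for Fgfr2 and 0.013 for S1pr5 in WT only. Without 1 mouse it ranged from -0.0058 to 0.0062 for Erbb4, -0.087 to 0.00085 for Fgfr2 and -0.019 to 0.026 for Lpar1.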
